A study of Mus musculus with 7 samples.

Results

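The mitochondrial ribosomal proteins were taken as every gene of the table with a symbol of the Mrpl or Mrps series, numbered and with at most a final a, b or c. The rule gave 77 genes of the 21487 in the table, 48 named for the large subunit (Mrpl) and 29 for the small subunit (Mrps). The rule uses symbols alone and no measured value, but it was chosen with earlier results of these data known. All 77 passed the filter on low counts that left 13409 genes for testing, and their counts ran from 145 to 3122 in a library.

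RNA was sequenced from gastrocnemius, a calf muscle, of mice under immobilization-induced muscle atrophy. The control group was 3 libraries from flox mice, whose genotype the labels give as WT, and the knockout group was 4 libraries with skeletal muscle PARK7KO, the loss of DJ-1 (gene Park7) called MPARK7KO. Immobilization was shared by both groups, so each difference is between genotypes within atrophying muscle and none measures immobilization. The labels give neither the Cre driver, the exons removed, the age, nor whether the libraries come from different animals. The p-values therefore reflect only how these libraries vary, and that variation may be technical. In whole muscle, fewer cells of a type and less RNA per cell cannot be told apart.

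Mitochondrial ribosomes translate the few mRNAs of mitochondrial DNA, all of which encode subunits of the respiratory chain and ATP synthase. Their ribosomal RNAs come from mitochondrial DNA, but every ribosomal protein is made from a nuclear gene, translated on cytosolic ribosomes and imported. The small subunit reads the mRNA, and the large subunit joins the amino acids and releases the chain at an exit close to the inner membrane. Many of these proteins have bacterial homologs, and others were added in mitochondria. Skeletal muscle, rich in mitochondria, has a steady need for such translation.

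Library totals ran from 24458343 to 26389010 counts. Park7 was 245 ± 18.8 CPM, the count scaled to library size (SD, n = 3), in the controls and 37.3 ± 2.94 (SD, n = 4) in the knockouts, a log2 fold change of -2.71 (standard error 0.0895, adjusted p = 2.52e-06 in edgeR's quasi-likelihood test with Benjamini-Hochberg adjustment). All 8 markers fixed for skeletal muscle were in the table. Called genes, those at an adjusted p under 0.05, numbered 1998 of 13409 (14.9%), with 1103 lower and 895 higher in the knockout. Of these calls 44.8% were higher, against 33.2% when libraries were scaled by their upper quartile. No library stood apart by its total, though the slow fibre, fibroblast and Schwann cell markers described below differed widely between libraries.

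The mitochondrial ribosomal protein mRNAs were shifted slightly downward in the knockout. Of the 77 genes, 64 (83.1%) had a log2 fold change below 0, as did 49.3% of all genes tested. The median was -0.14 for the large subunit genes and -0.14 for the small subunit genes, beside 0.01 over all genes. The test called 12 of the 77 lower (15.6%, beside 8.23% of all genes) and 1 higher (1.30%, beside 6.67%). In either direction together 16.9% were called, close to the 14.9% of all genes, so the number of calls is not a result about these genes. The changes were small: the largest fall was to 0.664 of the control level, and only that gene, Mrpl47, passed a 1.5-fold change, whereas 15.3% of all genes did. The SD of the log2 fold changes was 0.18 over the 77 genes and 0.49 over all genes. A typical standard error (median 0.0917) was close in size to the median change itself.

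Complete separation of the groups, with every knockout library below every control library, occurred in 27 of the 77 genes (35.1%), 18 of the large and 9 of the small subunit. Over all genes 14.7% were separated in that direction. The opposite separation occurred in 1 of the 77 (1.30%), beside 14.0% of all genes. Most of the separated genes did not reach the adjusted threshold. At an unadjusted p under 0.05, 27 were lower and 1 higher, beside 16.4% and 15.3% of all genes.

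**Figure D1:**
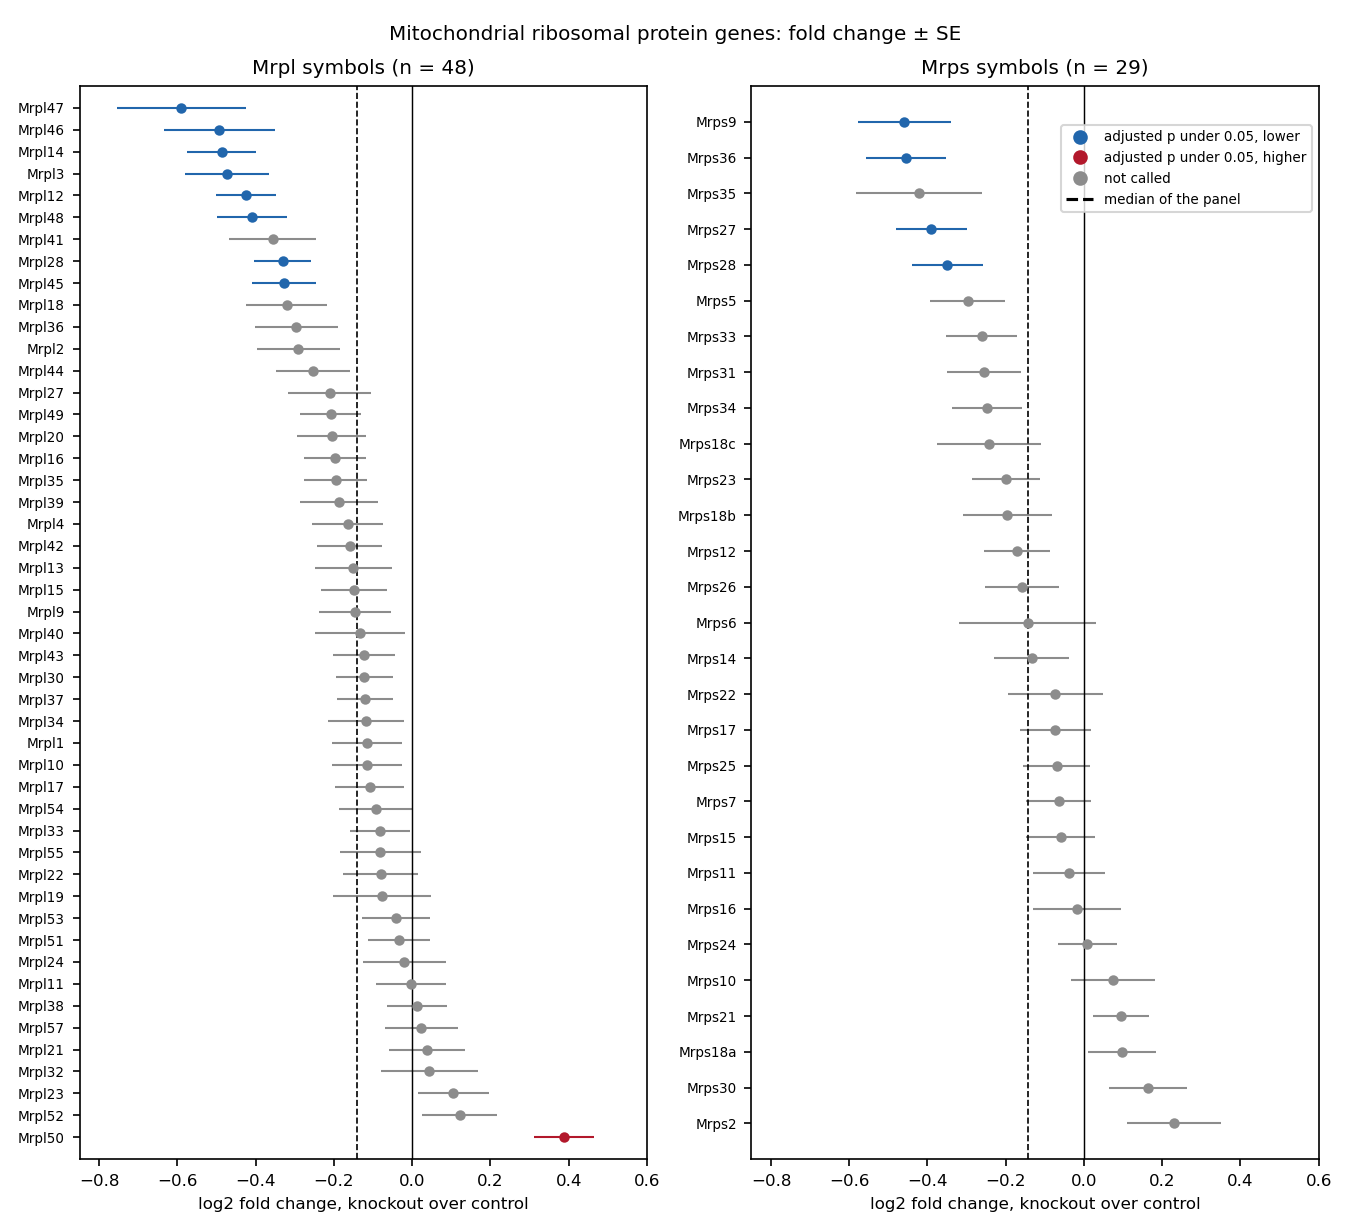
Log2 fold change of knockout against control for the 48 large subunit and 29 small subunit genes, ordered by value, with bars of 1 standard error. Genes at an adjusted p under 0.05 are blue if lower and red if higher, and the others are grey. Of the 77 genes 64 lie below 0, 12 are called lower and Mrpl50 alone is called higher.

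Among the large subunit genes 8 of 48 were called lower (16.7%, beside 8.23% of all genes) and 1 higher (2.08%, beside 6.67%). Of the 48, 41 had a negative log2 fold change, over a range from -0.59 to 0.39. The genes called lower encode proteins of several places in the subunit. They include core proteins with bacterial homologs, the stalk protein, members of the central protuberance and proteins near the exit of the peptide tunnel.

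Mrpl14, a core protein of the face that meets the small subunit, had the smallest p of the 77 genes. It is on chromosome 17 at 45686322 to 45698495, plus strand (GRCm38, as are all gene positions here). The controls held 30.4, 33.8 and 32.5 CPM and the knockouts 21.2, 25.3, 22.1 and 23.3 CPM. All 4 knockout libraries were below all 3 controls, and the mean fell from 32.2 ± 1.70 (SD, n = 3) to 23 ± 1.74 (SD, n = 4). The log2 fold change was -0.49 with a standard error of 0.0877 (adjusted p = 0.0104). Mrpl12, the protein of the flexible stalk that receives translation factors, also fell. It is on chromosome 11 at 120484613 to 120489065, plus strand. Its controls were 79.3, 86.2 and 74.6 CPM and its knockouts 63.2, 56.9, 59.4 and 58.9 CPM. Again no knockout reached a control, and the log2 fold change was -0.43 (standard error 0.0772, adjusted p = 0.0107). Among the 12 genes called lower, these were the only ones that stayed called when any single library was left out and when the replicate number was used as a block.

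Mrpl28 (chromosome 17, 26123500 to 26126613, plus strand) and Mrpl3 (chromosome 9, 105053239 to 105079888, plus strand) encode further proteins with bacterial homologs, the second reaching towards the site of peptide bond formation. Mrpl28 was 31.2, 32.7 and 32.8 CPM in the controls and 25.3, 24.8, 25.4 and 27 CPM in the knockouts. Its groups were tight, with SDs of 0.873 and 0.947 CPM, and did not overlap. The log2 fold change of Mrpl28 was -0.33 (standard error 0.0732, adjusted p = 0.0209). Mrpl3 was 30.1, 32.1 and 29.9 CPM in the controls and 19.3, 25.7, 23 and 20.5 CPM in the knockouts. The knockouts spread more widely than the controls but stayed below them, with a log2 fold change of -0.47 (standard error 0.107, adjusted p = 0.0228). The call of Mrpl28 was lost without control 1, control 2, control 3 or knockout 3 (adjusted p from 0.0527 to 0.0797) and under the replicate block (0.0553). That of Mrpl3 was lost without control 1, 2 or 3 or knockout 4 (0.0566 to 0.0713) and narrowly under the block (0.0501).

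Mrpl48 and Mrpl46 belong to the central protuberance, the crown of the large subunit above its peptide-joining centre. Mrpl48 (chromosome 7, 100545751 to 100608301, minus strand) was 30.0, 32.7 and 31.5 CPM in the controls and 26.5, 23.2, 22.1 and 22.7 CPM in the knockouts. Knockout 1 was the highest of the 4 and still below the lowest control. Mrpl48 had a log2 fold change of -0.41 (standard error 0.0891, adjusted p = 0.0195), lost without control 2, control 3, knockout 3 or knockout 4 (0.05 to 0.0681) and under the block (0.0722). Mrpl46 (chromosome 7, 78775236 to 78783531, minus strand) was 15.2, 16.7 and 15.1 CPM in the controls and 13.1, 8.44, 11.3 and 11.6 CPM in the knockouts. Its knockouts ranged widely, from 8.44 to 13.1 CPM, without meeting the controls. The log2 fold change of Mrpl46 was -0.49 (standard error 0.143, adjusted p = 0.0486), lost without any single control, knockout 3 or knockout 4 (0.0893 to 0.135) and under the block (0.102). Of the 5 central protuberance proteins measured, 2 were called lower (40%, beside 8.23% of all genes) and the median was -0.32. This list was drawn up after the values were seen.

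Mrpl47 and Mrpl45 stand near the exit of the peptide tunnel, and Mrpl45 also holds the ribosome to the inner membrane. Mrpl47 (chromosome 3, 32725397 to 32737605, minus strand) was low, at 11.4, 12.8 and 11.2 CPM in the controls and 10.2, 6.12, 7.72 and 7.25 CPM in the knockouts. Knockout 1 came close to the lowest control, while the other knockouts were well below. Mrpl47 had the largest fall of the 77 genes, -0.59, and a wide standard error of 0.165 (adjusted p = 0.0438). Its call was lost without any library other than knockout 1 (0.0592 to 0.125) and under the block (0.109). Mrpl45 (chromosome 11, 97315716 to 97329920, plus strand) was 50.7, 51.7 and 48.5 CPM in the controls and 44.5, 36.7, 39.6 and 39.6 CPM in the knockouts. The groups did not overlap, with knockout 1 again the nearest to the controls. The log2 fold change of Mrpl45 was -0.33 (standard error 0.0828, adjusted p = 0.0318), lost without any single control, knockout 3 or knockout 4 (0.0735 to 0.0925) and under the block (0.0839). The tunnel exit list, also drawn up after the values were seen, had a median of -0.15. In it 2 of 8 genes were called lower (25%, beside 8.23% of all genes). The stalk list of the same origin had 1 of 5 called lower (20%), Mrpl12, and a median of -0.09.

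Mrpl50 went the other way. It encodes a protein of the large subunit without a bacterial homolog and lies on chromosome 4 at 49512596 to 49521093, minus strand. The controls were 45.2, 44.7 and 41.2 CPM and the knockouts 61.6, 56.3, 56.4 and 54.5 CPM. Every knockout was above every control, and the mean rose from 43.7 ± 2.21 (SD, n = 3) to 57.2 ± 3.05 (SD, n = 4), which is 1.31-fold. The log2 fold change was 0.39 (standard error 0.0768, adjusted p = 0.0144). The call held under the replicate block (0.0344) and was lost only without control 3 (0.0636). Park7 is on the same chromosome, 101 Mb away. The next most positive genes with an Mrpl symbol were Mrpl52 at 0.12 (adjusted p = 0.420) and Mrpl23 at 0.11 (adjusted p = 0.458), neither called.

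Among the small subunit genes 4 of 29 were called lower (13.8%, beside 8.23% of all genes), and none was called higher in edgeR (beside 6.67%). Of the 29, 23 had a negative log2 fold change, over a range from -0.46 to 0.23. At an unadjusted p under 0.05, 0 of the 29 were higher, and DESeq2 also called 0 higher. Without control 2 the small subunit median moved from -0.144 to -0.096.

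Mrps27, an RNA-binding protein of the pentatricopeptide repeat family, lies on chromosome 13 at 99344786 to 99415562, plus strand. Its controls were 31.3, 33.5 and 30.7 CPM and its knockouts 26.4, 21.8, 23.4 and 25.5 CPM, with no overlap. Mrps27 fell by 0.39 on the log2 scale (standard error 0.0909, adjusted p = 0.0246). The call was lost without any single control or knockout 3 (0.0650 to 0.0780) and under the block (0.0619). Mrps28, named as the counterpart of bacterial ribosomal protein S1, lies on chromosome 3 at 8802146 to 8923918, minus strand. It was 23.1, 22.8 and 22.4 CPM in the controls, a spread of only 0.355 CPM (SD, n = 3), and 19.6, 17.7, 16.0 and 18 CPM in the knockouts. All knockouts were lower, with a log2 fold change of -0.35 (standard error 0.0904, adjusted p = 0.0343), lost without any single control, knockout 3 or knockout 4 (0.0723 to 0.101) and under the block (0.0794).

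Mrps9 is a core protein of the head of the small subunit and has a bacterial homolog. The gene is on chromosome 1 at 42851233 to 42905683, plus strand. Its controls were 23.2, 30.1 and 22.0 CPM, of which control 2 was the high one, and its knockouts 18.6, 18.1, 16.8 and 19.6 CPM. The groups did not overlap, and Mrps9 had a log2 fold change of -0.46 (standard error 0.120, adjusted p = 0.0350). This call was lost without any 1 of the 7 libraries (0.0507 to 0.0973) and under the block (0.0547). Mrps35, the other small subunit gene among the most negative, was 10.8, 12.7 and 11.2 CPM in the controls and 9.14, 10.6, 6.45 and 8.34 CPM in the knockouts. Knockout 2 lay just below the lowest control. Its log2 fold change of -0.42 was not called (adjusted p = 0.109) and passed only without knockout 2 (0.0435). Mrps2, the most positive of the 29, was 14.1, 17.7 and 14.1 CPM in the controls and 19.0, 19.2, 18.1 and 15.5 CPM in the knockouts. The groups overlapped through knockout 4, and the value of 0.23 was not called (adjusted p = 0.225).

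The Mrps symbols do not all name small subunit proteins. Mrps36 is a subunit of the alpha-ketoglutarate dehydrogenase complex of the citric acid cycle, and it had the smallest p of the 29. It lies on chromosome 13 at 100735955 to 100744659, minus strand. The controls were 32.7, 36.9 and 32.5 CPM and the knockouts 26.5, 25.1, 21.1 and 26.7 CPM, with no overlap. The log2 fold change was -0.45 (standard error 0.103, adjusted p = 0.0228), which held under the block (0.0380) and was lost without any single control (0.0540 to 0.0749). Mrps30 and Mrps18a encode proteins found in the large subunit. Mrps30 was 25.4, 28.3 and 26.8 CPM in the controls and 26.4, 34.2, 29.8 and 29.8 CPM in the knockouts, and its groups overlapped (0.16, adjusted p = 0.295). Mrps18a was 35.8, 38.1 and 34.4 CPM in the controls and 40.6, 41.9, 36.8 and 35.2 CPM in the knockouts, overlapping as well (0.10, adjusted p = 0.481). After Mrps2 they were the most positive of the 29.

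With these 3 genes placed by where the protein is found, the large subunit held 50 genes, of which 8 were called lower and 1 higher, with a median of -0.13. The small subunit then held 26, with 3 called lower, 0 higher and a median of -0.15. Divided by origin, with all 77 genes in the subunit of their symbol, 5 of 30 large subunit genes with a bacterial homolog at the same place were called lower (median -0.15) and 3 of 18 without one (median -0.13), the latter group holding Mrpl50. For the symbols of the small subunit the counts were 2 of 16 (median -0.07) and 2 of 13 (median -0.20). Those 13 include Mrps36, which is 1 of the 2 called, as well as Mrps30 and Mrps18a. Beside these counts, 8.23% of all genes were called lower and 6.67% higher. Differences between these groups of genes were not tested.

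**Figure D2:**
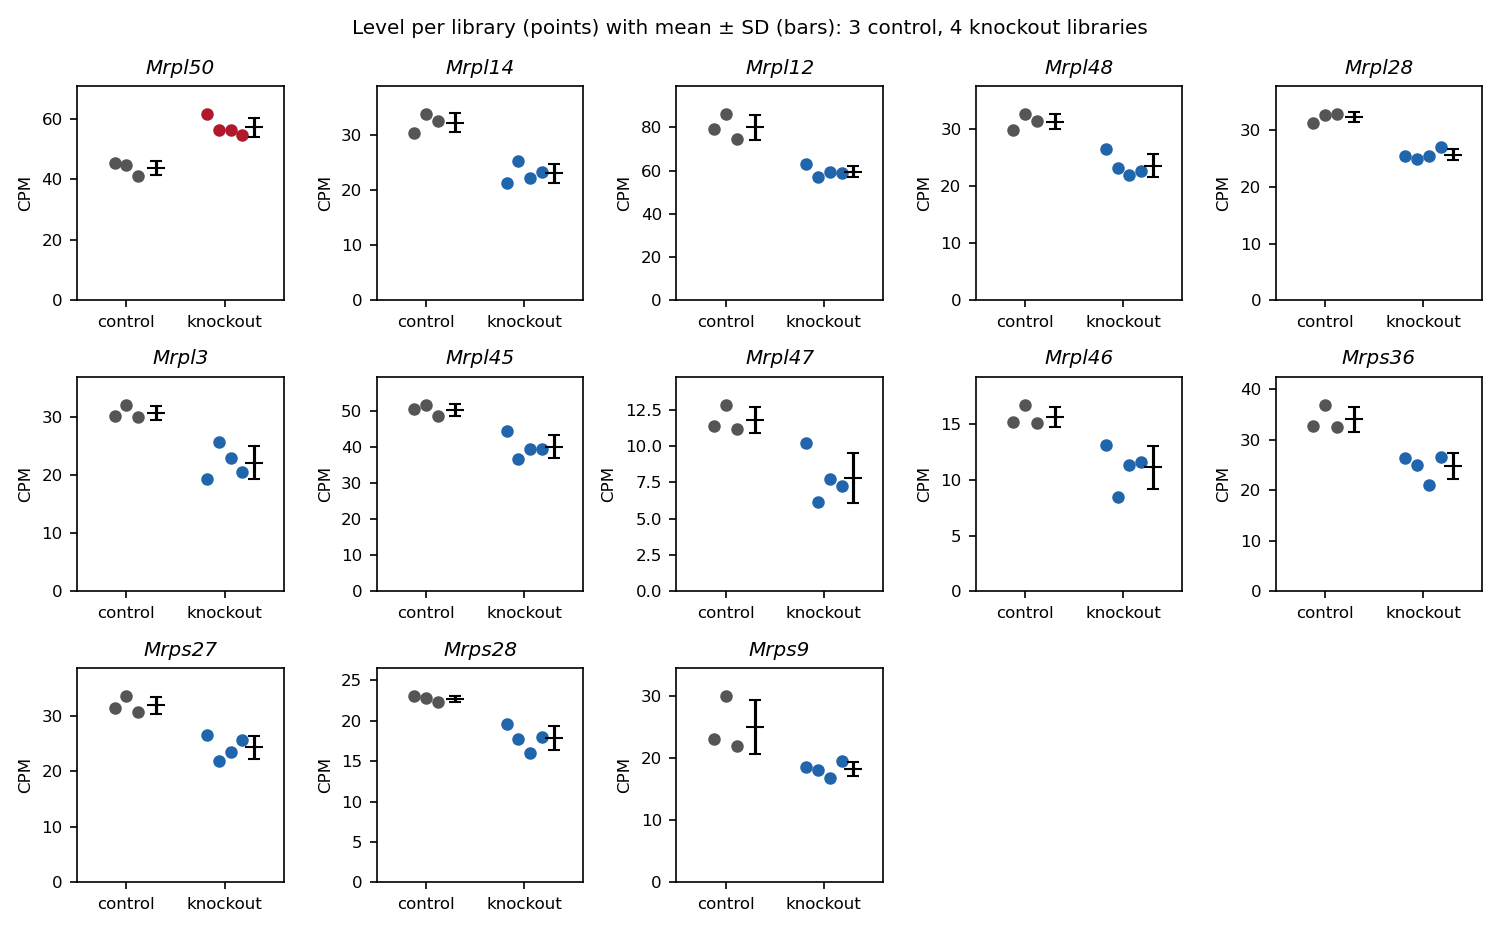
CPM in each of the 3 control and 4 knockout libraries for the 13 called genes, one panel per gene, with horizontal lines at the group means. The groups do not overlap in any panel, and Mrpl50 is the panel in which the knockouts lie above the controls.

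The promoters of 6 of these genes are given because they cover Mrpl50, the gene that rose, Mrpl46 with Mrps11, which starts beside it on the other strand, and the 3 genes called lower whose window holds an ETS or YY1 motif. Each runs 5′ to 3′ in the gene's own direction, from 250 bases before the RefSeq start to 50 bases after it, on GRCm38.p6. The capitals mark motif matches on either strand: the ZNF143 motif in Mrpl50; AAGATGGC, bound by YY1, in Mrps11 and Mrps27; and CCGGAAG, bound by ETS factors such as GABPA, in Mrps27, Mrpl3 and Mrpl48. The Mrpl46 window has none of these 3, but the YY1 match of Mrps11 lies just beyond its end. Its absence from Mrpl46 therefore reflects where the window stops. The windows are chr4:49521034-49521333 for Mrpl50 (minus strand), chr7:78783040-78783339 for Mrpl46 (minus strand), chr7:78782881-78783180 for Mrps11 (plus strand), chr13:99344536-99344835 for Mrps27 (plus strand), chr9:105053018-105053317 for Mrpl3 (plus strand) and chr7:100583081-100583380 for Mrpl48 (minus strand), where RefSeq places the start within the longer GENCODE gene.
Mrpl50: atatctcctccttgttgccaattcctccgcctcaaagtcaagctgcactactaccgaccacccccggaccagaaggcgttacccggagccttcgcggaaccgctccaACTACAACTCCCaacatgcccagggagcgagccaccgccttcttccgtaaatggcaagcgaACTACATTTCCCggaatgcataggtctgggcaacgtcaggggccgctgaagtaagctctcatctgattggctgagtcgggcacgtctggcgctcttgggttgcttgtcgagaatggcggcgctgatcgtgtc
Mrpl46: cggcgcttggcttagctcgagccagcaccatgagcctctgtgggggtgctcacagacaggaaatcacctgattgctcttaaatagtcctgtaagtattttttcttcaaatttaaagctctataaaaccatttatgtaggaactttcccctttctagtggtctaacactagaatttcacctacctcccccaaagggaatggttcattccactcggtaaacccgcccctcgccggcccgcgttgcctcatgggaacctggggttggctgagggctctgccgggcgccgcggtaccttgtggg
Mrps11: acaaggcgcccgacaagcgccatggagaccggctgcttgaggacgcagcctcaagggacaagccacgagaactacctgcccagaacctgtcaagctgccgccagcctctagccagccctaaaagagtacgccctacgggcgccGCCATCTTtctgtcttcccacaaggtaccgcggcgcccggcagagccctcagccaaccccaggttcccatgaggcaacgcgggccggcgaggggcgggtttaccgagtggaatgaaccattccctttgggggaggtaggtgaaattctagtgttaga
Mrps27: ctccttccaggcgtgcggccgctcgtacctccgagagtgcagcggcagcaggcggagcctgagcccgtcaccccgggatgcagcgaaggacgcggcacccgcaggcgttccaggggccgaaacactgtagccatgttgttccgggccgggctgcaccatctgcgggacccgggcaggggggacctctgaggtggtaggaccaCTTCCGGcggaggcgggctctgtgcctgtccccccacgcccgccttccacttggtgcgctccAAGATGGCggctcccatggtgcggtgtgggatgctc
Mrpl3: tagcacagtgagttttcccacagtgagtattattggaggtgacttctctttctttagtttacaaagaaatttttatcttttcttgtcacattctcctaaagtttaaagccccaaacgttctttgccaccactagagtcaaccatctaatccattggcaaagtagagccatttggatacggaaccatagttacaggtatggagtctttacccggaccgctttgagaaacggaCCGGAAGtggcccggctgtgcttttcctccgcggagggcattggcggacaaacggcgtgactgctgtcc
Mrpl48: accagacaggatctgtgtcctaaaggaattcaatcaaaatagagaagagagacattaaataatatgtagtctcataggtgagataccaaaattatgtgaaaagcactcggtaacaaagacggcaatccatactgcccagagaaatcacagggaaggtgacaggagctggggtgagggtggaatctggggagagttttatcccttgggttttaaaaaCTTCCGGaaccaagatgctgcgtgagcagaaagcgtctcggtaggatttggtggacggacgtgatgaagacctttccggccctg

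Other proteins of the mitochondrial ribosome carry names outside the Mrpl and Mrps series. Of the 6 measured, 3 were called lower (50%, beside 8.23% of all genes) and none higher in edgeR, with a median of -0.29. Ptcd3, a pentatricopeptide repeat protein of the small subunit, was 71.5, 65.6 and 62.0 CPM in the controls and 53.7, 45.5, 43.1 and 46.8 CPM in the knockouts. The groups were well apart, at a log2 fold change of -0.49 (standard error 0.0939, adjusted p = 0.0128). Gadd45gip1, a large subunit protein, was 21.8, 23.9 and 23.7 CPM in the controls and 16.8, 16.5, 16.6 and 17.9 CPM in the knockouts. It also separated fully, at -0.45 (standard error 0.0810, adjusted p = 0.0107). Ptcd3 and Gadd45gip1 stayed called in all 15 alternative settings.

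Ict1, a large subunit protein related to release factors, was 17.5, 19.8 and 17.3 CPM in the controls and 15.5, 14.4, 12 and 13.7 CPM in the knockouts. Its log2 fold change was -0.39 (standard error 0.109, adjusted p = 0.0443), lost without any library other than knockout 1 (0.0529 to 0.139) and under the block (0.0906). Aurkaip1 (-0.19, adjusted p = 0.144), Chchd1 (-0.16, adjusted p = 0.178) and Dap3 (-0.13, adjusted p = 0.306) were not called.

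All calls among the genes that build and serve the ribosome were lower. Of 18 mitochondrial translation factors and regulators, 6 were lower (33.3%, beside 8.23% of all genes) and 0 higher, with a median of -0.20. Lrpprc, which binds and stabilises mitochondrial mRNAs, was 106, 99.7 and 99.5 CPM in the controls and 76.7, 78.5, 77.5 and 77.7 CPM in the knockouts. The 4 knockouts were almost equal and far from the controls, at -0.39 (standard error 0.0636, adjusted p = 0.00795), and the call stood in all 15 alternative settings. The elongation factor Tufm (-0.31, adjusted p = 0.0153), the recycling factor Gfm2 (-0.29, adjusted p = 0.0319) and Tsfm, the exchange factor of Tufm (-0.51, adjusted p = 0.0386), followed. Under the block these reached 0.0567 for Tufm, 0.0509 for Gfm2 and 0.0994 for Tsfm. They were also lost on leaving out single libraries: control 1 or 3 for Tufm (0.0522 to 0.0608), any control, knockout 1 or knockout 3 for Gfm2 (0.0556 to 0.0988), and any library other than knockout 1 for Tsfm (0.0569 to 0.124).

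Of 28 assembly factors and enzymes that modify the ribosomal RNA, 3 were lower (10.7%) and 0 higher, with a median of -0.09. As 8.23% of all genes were called lower, the number of lower calls is not a result about this list. Trmt2b, which methylates mitochondrial RNA, had a log2 fold change of -0.60 (adjusted p = 0.0113) and stayed called in all 15 alternative settings. Mrm2, a methyltransferase of the large ribosomal RNA, was at -0.49 (adjusted p = 0.0270), and Mettl15, a methyltransferase of the small ribosomal RNA, was at -0.53 (adjusted p = 0.0485). Both lost the call under the block, at 0.0905 for Mrm2 and 0.0893 for Mettl15. Without single libraries Mrm2 was lost for any control, knockout 3 or knockout 4 (0.0521 to 0.102), and Mettl15 for any of the 7 (0.0632 to 0.140).

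Of 20 mitochondrial aminoacyl-tRNA synthetases, which load the transfer RNAs, only Hars2 was lower (-0.33, adjusted p = 0.0310). That was 5% of the list, beside 8.23% of all genes, and the median was -0.13. Hars2 was lost under the block (0.106) and without any control, knockout 3 or knockout 4 (0.0646 to 0.102). Of 7 genes for transcription of mitochondrial DNA, 1 was lower (14.3%, beside 8.23% of all genes), and the median was 0.05. It was Mterf2, a protein that binds that DNA. Mterf2 was 13.6, 13.5 and 14.1 CPM in the controls and 8.99, 6.85, 6.53 and 7.41 CPM in the knockouts. Its fall of 0.88 on the log2 scale (standard error 0.124, adjusted p = 0.00533) exceeded that of any of the 77 ribosomal protein genes and stood in all 15 alternative settings.

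The mRNAs these ribosomes translate stood further below the control than the ribosomal protein mRNAs did. So did the mRNAs of the nuclear subunits that assemble with the products. Of the 13 mRNAs of mitochondrial DNA, 12 were called lower (92.3%, beside 8.23% of all genes), with a median of -0.81. Of 76 nuclear genes for subunits of the respiratory chain and ATP synthase, 61 were called lower (80.3%) and 0 higher. Their median was -0.40, and the list was added after the values were seen. The mRNAs of cytosolic ribosomal proteins lay on the other side of 0. Of 78 measured, 64 had a positive log2 fold change, with a median of 0.09. The test called 3 higher (3.85%, beside 6.67% of all genes) and 0 lower. The share called higher was below that of all genes, so these calls are not a result about the list. Those called were Rpl41 (0.40, adjusted p = 0.0149), Rpl26 (0.25, adjusted p = 0.0448) and Rps18 (0.34, adjusted p = 0.0449). None of the 3 kept its call under the block (0.0532 for Rpl41, 0.111 for Rpl26, 0.0735 for Rps18). Rpl41 was lost without control 1 or control 2 (0.0524 to 0.0683), Rpl26 without any library other than knockout 3 (0.0639 to 0.142), and Rps18 without any library other than control 2 (0.0662 to 0.164).

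Summed over genes in each library, the large subunit mRNAs came to 1587, 1700 and 1522 CPM in the controls and 1484, 1420, 1396 and 1451 CPM in the knockouts. The groups did not overlap, and the knockout mean was 0.897 of the control mean. The small subunit sums were 795, 863 and 776 CPM against 766, 742, 713 and 745 CPM, also without overlap, at 0.914 of the control mean. Control 2 was the highest library in both sums. As a share of all counts of a library, before any scaling between libraries, the 77 genes took 0.241% ± 0.0146 (SD, n = 3) in the controls and 0.219% ± 0.0161 (SD, n = 4) in the knockouts, and on that scale the groups overlapped.

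Large and small subunit mRNAs kept close to a fixed proportion. The ratio of the 2 sums was 2, 1.97 and 1.96 in the controls and 1.94, 1.91, 1.96 and 1.95 in the knockouts. The knockout values were all lower, by a margin that is small beside the ratio itself (1.98 ± 0.0184 against 1.94 ± 0.0188). The balance with the mitochondrial mRNAs moved much further. For each CPM of the 77 genes the controls held 82.4, 74.2 and 75.3 CPM of mitochondrial DNA mRNAs and the knockouts 48.0, 45.5, 42.9 and 54.6 CPM. The groups were far apart, and the knockout mean of this ratio was 0.617 of the control mean. The respiratory chain and ATP synthase mRNAs of nuclear origin came to 8.64 ± 0.314 (SD, n = 3) and 7.04 ± 0.370 (SD, n = 4) for each CPM of the 77 genes. For the cytosolic ribosomal proteins the corresponding values were 5.05 ± 0.240 and 5.91 ± 0.201, higher in the knockout. These ratios are descriptions of sums and carry no test.

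**Figure D3:**
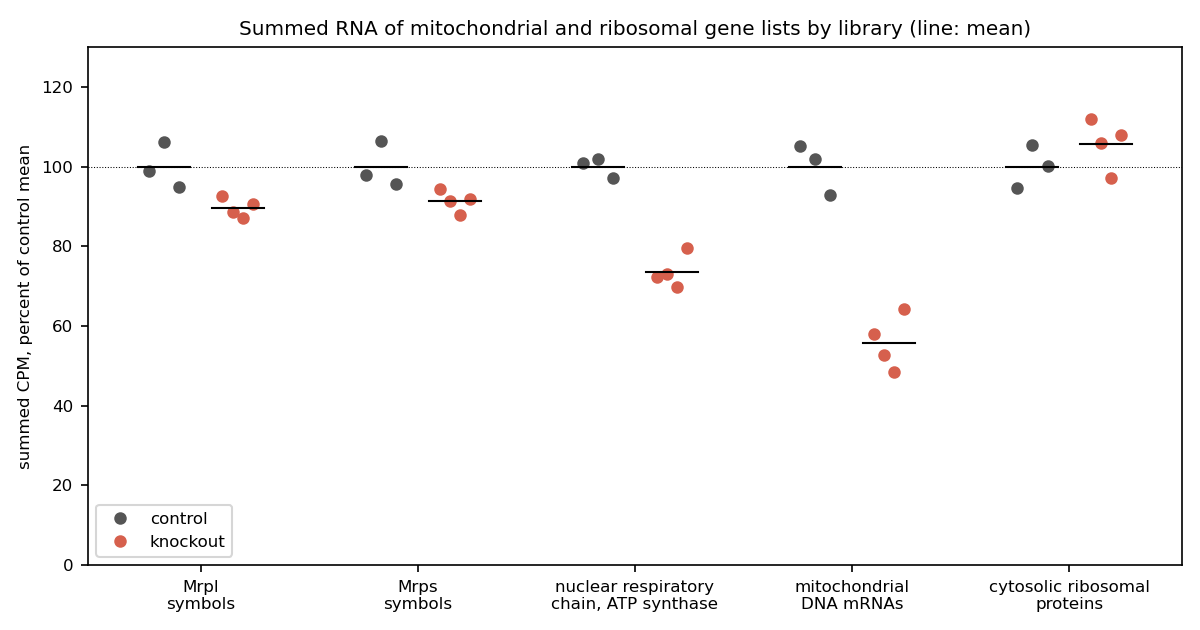
Summed CPM in each library, divided by the control mean, for large subunit genes, small subunit genes, mitochondrial DNA mRNAs, nuclear respiratory chain and ATP synthase genes and cytosolic ribosomal proteins. The 2 subunits lie at 0.897 and 0.914 of the control mean in the knockout, between the mitochondrial DNA mRNAs at 0.558 and the cytosolic ribosomal proteins at 1.06.

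Markers of other cells and fibres differed between the same groups. For the counts of calls below, 8.23% of all genes were called lower and 6.67% higher. Of the 10 slow fibre genes 5 were called lower, and their summed level ran from 1870 to 2194 CPM in the controls and from 85.9 to 742 CPM in the knockouts. Fibroblast genes (3 of 7 lower) summed to 310 to 714 CPM and 218 to 357 CPM, macrophage genes (3 of 9 lower) to 55.8 to 91.4 CPM and 38.4 to 61.3 CPM, and Schwann cell genes (2 of 6 lower) to 65.5 to 261 CPM and 41.7 to 58.7 CPM. Endothelial genes (1 of 6 lower) summed to 195 to 235 CPM in the controls and 159 to 180 CPM in the knockouts. Adipocyte genes (0 of 4 tested lower) gave 27.6 to 64.2 CPM and 12.4 to 30.6 CPM, and satellite cell genes (0 of 4 lower) 6.87 to 7.89 CPM and 4.83 to 6.31 CPM. The 8 skeletal muscle markers (1 lower, 1 higher) summed to 133685 to 166361 CPM in the controls and 159093 to 240813 CPM in the knockouts. No marker was at 0 in every library. The part of these cell and fibre differences in the ribosomal protein values was not tested. Knockouts 1 and 4, with 734 and 742 CPM of slow fibre mRNA, had large subunit medians of -0.13 and -0.14 relative to the control mean, and knockouts 2 and 3, with 143 and 85.9 CPM, had -0.15 and -0.18. The small subunit medians were -0.08 and -0.16 in knockouts 1 and 4 and -0.13 and -0.18 in knockouts 2 and 3, so that knockout 4 lay below knockout 2.

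Although the proteins are mostly present once per ribosome, their mRNA levels differed widely. Per kilobase of transcript, which allows genes to be compared, the control level had a median of 20.2 CPM per kb, and the 10th and 90th percentiles were 6.32 and 49.8 CPM per kb. Mrpl42 was the highest, at 176 CPM per kb in the controls and 157 in the knockouts, followed by Mrps21 at 102 and 109 and Mrpl30 at 66.1 and 60.7. In plain CPM, Mrpl42 was 119, 120 and 112 in the controls and 107, 101, 95.1 and 116 in the knockouts, and knockout 4 overlapped the controls. The differences of Mrpl42 (-0.16, adjusted p = 0.225), Mrps21 (0.09, adjusted p = 0.404) and Mrpl30 (-0.12, adjusted p = 0.278) were not called.

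At the other end Mrps35 held 2.78 and 2.07 CPM per kb, Mrpl19 held 3.42 and 3.24, and Mrpl47 held 3.51 and 2.33. The highest and lowest control levels were 63.2-fold apart. Mrps35 was also the lowest and Mrpl42 the highest in the knockout, while Mrpl19 and Mrpl47 exchanged places. Across the 77 genes the log2 group means had a Pearson r of 0.989 and a Spearman rho of 0.982, which describes genes sharing the same libraries and transcript lengths and not independent replicates. The length used is that of the principal coding transcript, so a gene expressed mainly as a shorter or longer transcript would have a different level. Mrps23, second among small subunit genes at 57.9 and 50.4 CPM per kb, and Mrps26, second lowest among them at 4.43 and 3.97, had log2 fold changes of -0.20 (adjusted p = 0.156) and -0.16 (adjusted p = 0.280).

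**Figure D4:**
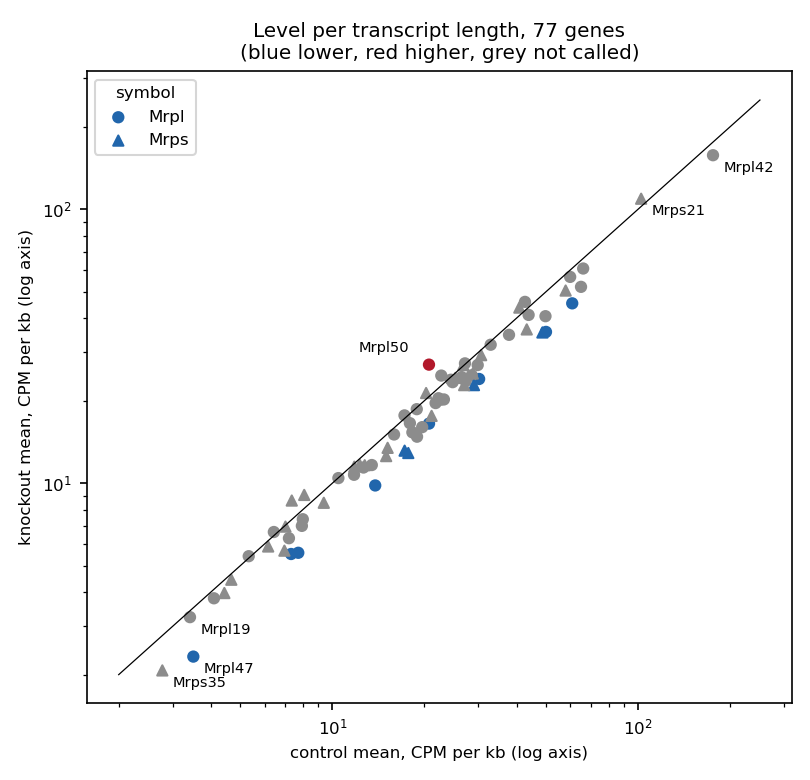
Mean CPM per kilobase of transcript in the knockout (4 libraries) against the control (3 libraries) for the 77 genes, on log axes, with the line of equality. The levels span 63.2-fold in the control, from Mrps35 to Mrpl42, and the genes stay close to the line.

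The 77 genes lie on 17 chromosomes, with 10 on chromosome 11, 8 on chromosome 17 and 7 on chromosome 6. Their transcripts are short, with a median of 1288 bases beside 2916 for the 15807 coding genes of the table, while the GC content is alike (50.7% and 50.5%). Many are head to head with another gene. In 28 of the 77 (36.4%) a coding gene on the opposite strand starts within 1000 bases, as it does for 1818 of the 15807 coding genes (11.5%). Of 23 partners tested, 2 were called lower (Ndufb5, and Mrpl46 as the partner of Mrps11) and 1 higher (Zfp189). Over all genes 8.23% were called lower and 6.67% higher, so these counts are not a result about the partners. The median log2 fold change of the 23 tested partners was 0.02. That of all 28 ribosomal protein genes with a partner, tested or not, was -0.14.

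In 2 pairs both genes were called, each time in the same direction. Ndufb5, a subunit of complex I whose start is 157 bases from that of Mrpl47, was 215, 256 and 213 CPM in the controls and 152, 150, 138 and 161 CPM in the knockouts. It was separated widely, at -0.60 (standard error 0.0903, adjusted p = 0.00652), beside -0.59 for Mrpl47. Zfp189, a zinc finger gene starting 124 bases from Mrpl50, was 4.10, 3.37 and 4.83 CPM in the controls and 6.35, 10.2, 7.80 and 8.34 CPM in the knockouts. Both sides of that shared start were higher in the knockout, Zfp189 by 0.99 on the log2 scale (standard error 0.190, adjusted p = 0.0128). Ndufb5 and Zfp189 stayed called in all 15 alternative settings.

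In some other pairs a called gene faced a gene that was not called. Mrpl46 and Mrps11, a ribosomal protein gene on each side, start 30 bases from each other. Mrps11 was 12.6, 12 and 12.7 CPM in the controls and 11.8, 11.4, 12.9 and 12.4 CPM in the knockouts, overlapping throughout, at -0.04 (adjusted p = 0.808), while Mrpl46 was at -0.49. Tmem63b, which starts 63 bases from Mrpl14, was at 0.07 (adjusted p = 0.654), beside -0.49 for Mrpl14. Ptcd2, 81 bases from Mrps27, was at -0.32 and narrowly not called (adjusted p = 0.0511). Its direction was that of Mrps27, at -0.39. The difference between the genes of a pair was not tested.

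**Figure D5:**
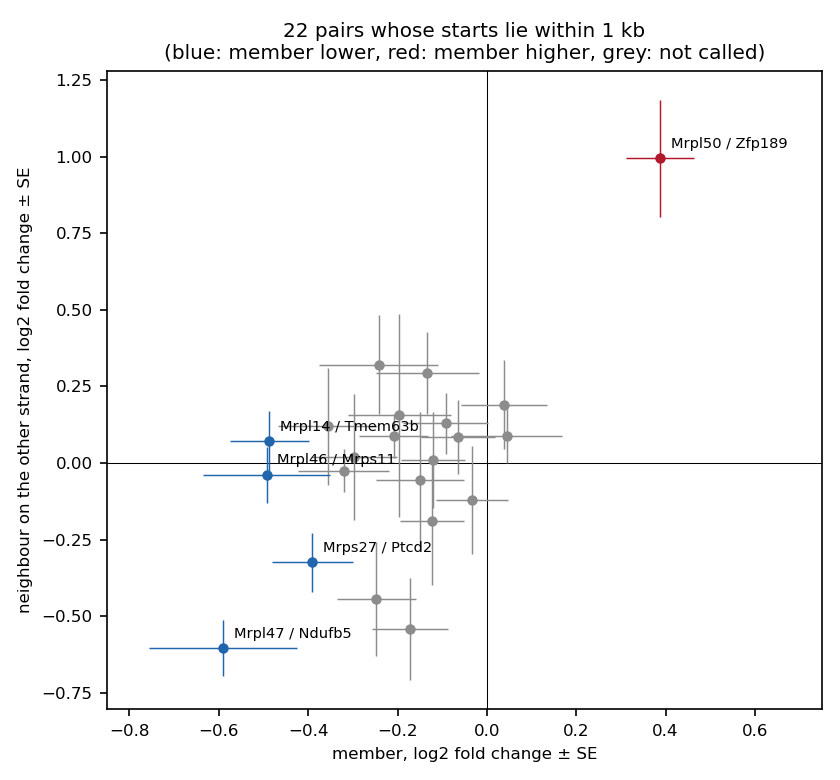
Log2 fold change of the neighbouring gene against that of the ribosomal protein gene for 22 head-to-head pairs with starts within 1000 bases, with bars of 1 standard error. Mrpl47 with Ndufb5 lies at the lower left, Mrpl50 with Zfp189 at the upper right, and most neighbours lie near 0.

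Some of these genes also overlap a coding gene, 26 of 77 in all, and whether the counting used strand is not given in the sources used here. Of the called genes, Mrpl14 overlaps Tmem63b, Mrpl46 overlaps Mrps11, and Mrpl47 overlaps Ndufb5 and Actl6a (-0.01, adjusted p = 0.949). Mrpl48 overlaps Rab6a, which was higher in the knockout (0.33, standard error 0.0689, adjusted p = 0.0166), the direction opposite to Mrpl48. Without any single control Rab6a was not called (adjusted p from 0.0573 to 0.0585). The values of these pairs may share reads and are uncertain to that extent. The expected counts of Mrpl14, Mrpl46, Mrpl47 and Mrpl48 were whole in every library, which does not show from which gene each read came. In 6 of the 77 genes some expected counts were not whole, as when reads are divided between similar or overlapping sequences. What divided them was not tested. Among the 6, Mrpl19, Mrpl24, Mrpl43 and Mrps25 overlap a coding gene, and none of the 6 was called.

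Of the promoters shown, the windows of Mrpl46 and Mrps11 cover much of the same DNA read from opposite strands and share those bases. Mrpl50's window holds the ZNF143 match at 2 places upstream of the start. Among the 68 of 77 genes with a RefSeq promoter, 5 held that motif (7.35%: Mrpl24, Mrpl34, Mrpl42, Mrpl50 and Mrps22), beside 3.71% of the 12352 promoters of coding genes in the table. This motif was searched after the promoter of Mrpl50 had been read.

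The ETS motif was in 24 of the 68 promoters (35.3%), beside 15.4% of those of coding genes in the table. The YY1 motif was in 12 (17.6%, beside 3.94%). The site of NRF1, a regulator of nuclear genes for mitochondria, was searched by its core GCGCATGC, found in 8 (11.8%, beside 4.74%). A longer form, in which the core is followed by GC, was found in 3 (4.41%, beside 1.74%), and each of these also counts as a core match. The Sp1 GC box GGGCGG was in 48.5% of the 68, beside 59.7%, the TATA box TATAAA in 5.88%, beside 8.31%, and the E-box CACGTG in 7.35%, beside 9.36%. Both strands were searched for each motif.

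The ETS, YY1 and NRF1 motifs were set beside the fold changes, and the differences were not tested. Over all genes 8.23% were called lower. Of the 24 with the ETS motif 3 were called lower (median log2 fold change -0.12), and of the 44 without it 8 were (median -0.14). Of the 12 with the YY1 motif 1 was called lower (median -0.14), and of the 56 without it 10 were (median -0.13). None of the 8 with the NRF1 core was called lower in edgeR (median -0.11), and 11 of the 60 without it were (median -0.14). These are counts of letter matches in a fixed window, not of bound sites.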

How the data were processed

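RNA was sequenced in 7 libraries (3 control, 4 knockout) as 150 bp paired ends on a BGIseq500, per the labels' protocols. Reads were aligned to mm10 with STAR 2.7.10a, and the authors deposited RSEM 1.2.28 expected counts per gene, per the submitters' processing notes; they also list DESeq2 1.3.40. The sources used here do not name the annotation or the strand of counting. Here the expected counts were rounded to whole numbers (7.59% of values were not whole), filtered with filterByExpr, scaled by TMM and tested in R 4.3.3 with edgeR 4.0.16 (quasi-likelihood F test, Benjamini-Hochberg over all 13409 genes, called under 0.05). CPM use the library totals (24458343 to 26389010 counts) multiplied by their TMM factors. Positions and lengths came from GENCODE M21, matched by symbol, and promoters from RefSeq.

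Samples were grouped by title. The replicate numbers come from titles only. Libraries of equal number deviated together only weakly (r = 0.104, 0.139 and 0.105 across genes). For unequal numbers r ran from -0.162 to 0.0840. The pairing is a hint from the data that the labels do not state. Blocked p-values are given for this reason where they end a call. Knockout 4 has no partner and adds nothing to the blocked estimate. Alternatives were other scalings, filters, a robust prior, DESeq2 1.42.0, removal of the mitochondrial DNA mRNAs, and leaving out each library. The test was checked on simulated data. Genes were named by rule: the called members, those with extreme change or level, symbols misplaced by name, and up to 4 called genes of each related list; overlapping and head-to-head neighbours were chosen after their values were seen. The members and lists were chosen with earlier results of these data known. Of the genes, 9 had no promoter entry.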

Additional observations from a re-analysis of the deposited data

How the results depend on the processing

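The counts of called genes varied with the block and with which library was left out. With the replicate block, all genes called fell from 1998 to 1273, large subunit genes called lower from 8 to 2 (Mrpl12 and Mrpl14) and small subunit genes from 4 to 1 (Mrps36). Among the Mrpl and Mrps genes it added no call. Leaving out 1 library gave 793 to 2057 genes in all, 2 to 9 large subunit genes lower and 0 to 1 higher, and 0 to 4 small subunit genes lower. Fewest stayed without a control: 3, 2 and 2 large subunit genes and 0 small subunit genes without control 1, 2 and 3. Without knockout 3 the counts were 3 and 1, and without knockout 4 they were 3 and 2. Calls in the related lists ranged from 14 to 25, against 26, and were 14 with the mitochondrial DNA mRNAs removed, by construction. Testing every gene without a filter gave 5 large subunit genes lower, with Mrpl45, Mrpl46 and Mrpl47 then just past the threshold (adjusted p = 0.0561, 0.0625 and 0.0507), and 3 small subunit genes, with Mrps28 lost (0.0561). RLE scaling, DESeq2, a robust prior and a mean count of at least 10 kept all 13 calls. Upper quartile scaling gave 15 lower and 1 higher, with a median of -0.19 beside -0.04 over all genes. The subunit medians stayed negative throughout (large -0.17 to -0.09, small -0.18 to -0.10 without single libraries). None of the genes named by rule changed sign in these settings, but other uncalled members did: negative log2 fold changes numbered 58 (without control 2) to 69 (upper quartile scaling) of 77, against 64. With 3 and 4 libraries, many changes of the size seen here were called in some settings and not in others. A limit of detection was not measured.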
